A study of Mus musculus with 6 samples.

Results

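The cytosolic thioredoxin system, peroxiredoxins, catalase and superoxide dismutases of the mouse liver are described here through 10 genes, Txn1, Txnrd1, Srxn1, Prdx1, Prdx4, Prdx5, Prdx6, Cat, Sod1 and Sod2. They were picked by name as enzymes of these systems, with earlier results of these data known, and all 10 were found among the 24411 gene symbols of the count table and passed the filter on low counts. RNA of livers at postnatal day 19 was sequenced after removal of ribosomal RNA, from 3 p62+/+ mice and 3 p62S351E/+ mice. The p62S351E/+ mice carried one edited allele of Sqstm1, the gene encoding the autophagy adaptor p62, with glutamate in place of Ser351. This change mimics phosphorylation of a residue in the region of p62 that binds KEAP1, and the comparison asks what it does to transcripts of the liver in the living mouse. The allele was introduced by prime editing into RENKA4 embryonic stem cells of C57BL/6N origin, and all carriers descended by in vitro fertilization from one male chimera. The carriers were growth-retarded. For younger carriers the study also reports mild liver enlargement and serum signs of malnutrition and dehydration. The genotype thus comes together with differences in growth and nutrition. The labels give neither sex nor litter, and mice with the same number in both genotypes are different animals. The table counts reads per gene without telling the Sqstm1 alleles apart, so the genotypes could not be checked in it.

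Superoxide dismutases turn superoxide into hydrogen peroxide, Sod1 in the cytosol and Sod2 in the mitochondrial matrix. Catalase in peroxisomes and peroxiredoxins in several compartments then reduce hydrogen peroxide. Peroxiredoxins form a disulfide in the reaction, which thioredoxin reduces, and thioredoxin is in turn reduced by thioredoxin reductase at the expense of NADPH. Sulfiredoxin repairs peroxiredoxins whose catalytic cysteine has been oxidized further. KEAP1 keeps the transcription factor NRF2 low, and NRF2 binds antioxidant response elements, a DNA motif found near the genes of several of these enzymes.

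To show where such a motif lies near these genes, the core TGACNNNGC was searched on both strands of the RefSeq promoter windows of GRCm38.p6, the build of mm10. Each window runs from 250 bases before to 50 bases after an annotated start. Windows were available for 9 of the 10 genes, Prdx6 being the other, and 4 of the 9 held the core in at least one window. Over the whole table, 14% of 27025 genes and 12.4% of 32851 windows held it. The windows of these 4 genes are printed 5′ to 3′ on the strand of the gene, with the core in capitals. In each of them the core reads on the opposite strand, as TGACAAAGC in Txnrd1, TGACCTAGC in Srxn1, TGACTCAGC in Prdx1 and TGACCACGC in Sod1.
Txnrd1, chr10:82858956-82859255, plus strand, core starting at position -92 from the start: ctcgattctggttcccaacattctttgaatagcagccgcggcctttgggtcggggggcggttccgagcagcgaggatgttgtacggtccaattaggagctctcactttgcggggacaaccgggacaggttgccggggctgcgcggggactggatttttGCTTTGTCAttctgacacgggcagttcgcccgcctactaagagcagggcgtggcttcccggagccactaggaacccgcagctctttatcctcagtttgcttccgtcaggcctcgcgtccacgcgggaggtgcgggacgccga
Srxn1, chr2:152105274-152105573, plus strand, core starting at position 29: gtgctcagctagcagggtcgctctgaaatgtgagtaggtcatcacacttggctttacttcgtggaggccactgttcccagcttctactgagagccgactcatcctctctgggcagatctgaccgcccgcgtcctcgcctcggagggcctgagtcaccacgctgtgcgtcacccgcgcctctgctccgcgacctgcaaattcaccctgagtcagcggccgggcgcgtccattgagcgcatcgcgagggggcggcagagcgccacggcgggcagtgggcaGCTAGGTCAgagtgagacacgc
Prdx1, chr4:116685349-116685648, plus strand, core starting at position -133: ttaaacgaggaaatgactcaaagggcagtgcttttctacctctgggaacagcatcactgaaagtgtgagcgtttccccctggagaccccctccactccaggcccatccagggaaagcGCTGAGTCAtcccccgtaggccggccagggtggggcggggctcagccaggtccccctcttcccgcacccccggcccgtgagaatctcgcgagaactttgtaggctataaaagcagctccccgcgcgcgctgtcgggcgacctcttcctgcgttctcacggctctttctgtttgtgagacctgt
Sod1, chr16:90220512-90220811, plus strand, core starting at position -56: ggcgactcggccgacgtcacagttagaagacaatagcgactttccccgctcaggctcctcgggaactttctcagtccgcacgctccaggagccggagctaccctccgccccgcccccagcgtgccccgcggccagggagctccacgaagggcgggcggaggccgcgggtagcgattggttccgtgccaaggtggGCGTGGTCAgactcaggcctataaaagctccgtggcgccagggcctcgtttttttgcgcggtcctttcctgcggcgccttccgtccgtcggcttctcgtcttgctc
Txnrd1 has 3 annotated starts, and the window shown is the one of the 3 that held the core. The windows of Txn1, Prdx4, Prdx5, Cat and Sod2 did not hold these letters, which says nothing about sequence outside the windows or about other forms of the motif. Binding of NRF2 was not measured here.

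Txnrd1 is a selenoprotein, and its reactive selenocysteine is encoded by a UGA codon that other genes use as a stop. The end of its coding sequence in the GENCODE transcript Txnrd1-201 lies at chr10:82896019-82896045 on the plus strand of GRCm38, with the selenocysteine codon in capitals and 2 codons after it, the last of which is the stop.
Txnrd1 coding end: atcctccagtctggctgcTGAggttaa

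Most of the sequencing depth was spent outside the genes of interest, so the precision of each value is set by few counts. Of 8696712 to 10341622 estimated counts per library, 134911 to 315436 fell outside Rn45s, Lars2 and Mir6236, the fewest in p62S351E/+ mouse 1. The libraries also stood apart in transcripts of another tissue. The counts of 10 brain markers summed to 2173, 2238 and 1973 in the p62+/+ livers and 2134 for p62S351E/+ mouse 3, but 28 and 8 for p62S351E/+ mice 1 and 2, where Snap25, Gfap, Camk2a, Slc17a7, Gad1 and Stmn2 were at 0. Xist, the RNA that coats the inactive X of female cells, stood at 70.8, 1505 and 1071 raw counts for p62+/+ and at 1, 0 and 1537 for p62S351E/+. The labelled tissue was borne out by its markers, since all 10 hepatocyte markers were detected in every library. After scaling by TMM (edgeR's trimmed mean of log ratios between libraries), these 10 markers summed to 15104, 13910 and 14348 normalized counts in the p62+/+ livers and to 21273, 32875 and 15362 in the p62S351E/+ livers. The hepatocyte sum was thus higher in every p62S351E/+ mouse, though mouse 3 was close to p62+/+ mouse 1. Single markers differed, with log2 fold changes of -0.04 for Apoa1, 0.0023 for Serpina1c and 0.13 for Ttr. Those of Alb, Cps1 and Apob were 0.83, 0.94 and 1.10, and Alb was the largest single part of the sum. With this limit, results on this scale are also given relative to hepatocyte markers. Markers of other liver cells ranged, in normalized counts, from 101 to 124 in p62+/+ and from 124 to 160 in p62S351E/+ mice for Kupffer cells, from 170 to 282 and from 193 to 274 for endothelial cells, from 193 to 313 and from 126 to 181 for stellate cells, and from 137 to 197 and from 58.5 to 135 for the 9 of 10 erythroid markers found in the table. In RNA from whole liver, more cells of a type and more RNA per cell cannot be told apart.

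Srxn1, Txnrd1, Cat, Prdx1 and Prdx6 had more normalized counts in every p62S351E/+ mouse than in any p62+/+ mouse, by 1.72-fold to 3.05-fold in the means. Txn1, Prdx4, Prdx5, Sod1 and Sod2 overlapped between the genotypes, and Prdx5 was the one gene of the 10 with a lower mean in p62S351E/+ mice. None of the 10 passed the threshold of an adjusted p (Benjamini-Hochberg over 5945 genes) below 0.05 with an absolute log2 fold change above 1 in edgeR's quasi-likelihood test with all 6 mice, at which 0.841% of all genes tested were higher and 0.0841% were lower. At an unadjusted p below 0.05, 5 of the 10 were higher and 0 were lower, against 9.02% and 5.55% of all genes tested. DESeq2 gave an adjusted p for 6 of the 10 genes and called 0 of these. At an unadjusted p below 0.05 from DESeq2 were 4 of the 10, and the share of all genes there was not counted. DESeq2 gave no adjusted p for Txn1, Srxn1, Prdx4 and Prdx5, which fell under its filter on mean counts. In all, 1814 of 16261 genes had an adjusted p from DESeq2, and only these could be called. Called higher were 57 genes, or 0.351% of the 16261. The share to set beside the 6 genes is 57 of 1814. Limma-voom called 2 of the 10, Srxn1 and Txnrd1, with 2.05% of genes called higher. Of all genes tested, 12% lay higher without overlap and 14.7% lower without overlap, against 5 and 0 of the 10. The median log2 fold change of the 10 genes was 0.66, and that of all genes tested was -0.03. Above 0 were 9 of the 10, as were 48% of all genes tested.

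**Figure D1:**
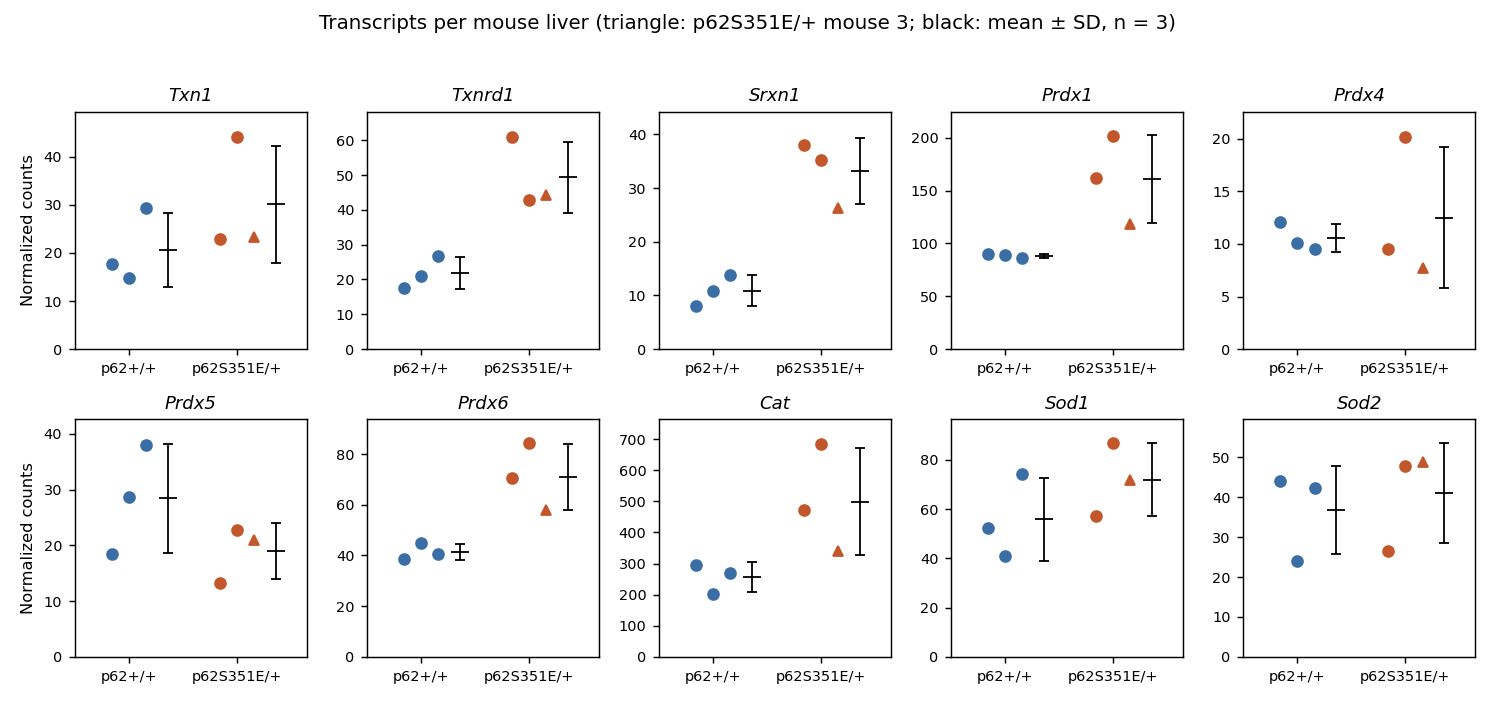
Normalized counts (estimated counts scaled by TMM) of each of the 10 genes, one panel per gene with its own axis from 0. Each point is one mouse, with p62+/+ in blue and p62S351E/+ in orange, the triangle marks p62S351E/+ mouse 3, and the black bars are the mean ± SD of 3 mice. The p62S351E/+ points lie above all p62+/+ points for Txnrd1, Srxn1, Prdx1, Prdx6 and Cat, and the points overlap for the other genes.

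Srxn1, on chromosome 2 from 152105524 to 152111376, encodes sulfiredoxin. It had 8.02, 10.9 and 13.8 normalized counts in the p62+/+ livers and 38.1, 35.3 and 26.3 in the p62S351E/+ livers. The lowest p62S351E/+ value, that of mouse 3, was still above the highest p62+/+ value. The means were 10.9 ± 2.90 and 33.2 ± 6.13 (SD, n = 3 each), 3.05-fold apart, and the log2 fold change was 1.59 (standard error 0.31, 95% interval from 0.89 to 2.29). This was the largest difference among the 10 genes, and it ranked 64 by p among the 5945 genes tested, with an adjusted p of 0.0659 from edgeR. The raw counts behind these values were 10, 14 and 16 in p62+/+ livers and 20, 28 and 34 in p62S351E/+ mice.

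Txnrd1, on chromosome 10 from 82833951 to 82897724, encodes the cytosolic thioredoxin reductase whose selenocysteine codon is shown above. Its normalized counts were 17.7, 21.0 and 26.8 in the p62+/+ livers and 60.9, 42.8 and 44.2 in the p62S351E/+ livers. The groups did not overlap, and mouse 3 was close to mouse 2. The means of 21.8 ± 4.62 and 49.3 ± 10.1 (SD, n = 3 each) differed 2.26-fold, a log2 fold change of 1.17 (standard error 0.26, 95% interval from 0.57 to 1.77), with an adjusted p of 0.101 from edgeR.

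Txn1, on chromosome 4 from 57943373 to 57956411, encodes thioredoxin itself, the substrate of that reductase. It had 17.7, 14.7 and 29.4 normalized counts in the p62+/+ livers and 22.9, 44.1 and 23.2 in the p62S351E/+ livers. One p62S351E/+ mouse was high, and the other two lay within the p62+/+ range. The log2 fold change was 0.55 (standard error 0.37, 95% interval from -0.30 to 1.40, adjusted p = 0.507 from edgeR), an interval that reaches from a small decrease to more than a doubling.

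Prdx1, on chromosome 4 from 116685599 to 116700000, encodes an abundant peroxiredoxin of the cytosol and nucleus that sulfiredoxin can repair. Its normalized counts were 89.9, 89.3 and 86.4 in the p62+/+ livers and 161.9, 201.6 and 118.5 in the p62S351E/+ livers. The p62+/+ mice hardly differed from each other, while the p62S351E/+ mice spread widely above them. The means were 88.5 ± 1.88 and 160.7 ± 41.5 (SD, n = 3 each), and the log2 fold change was 0.86 (standard error 0.24, 95% interval from 0.31 to 1.40, adjusted p = 0.17 from edgeR).

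Prdx6, on chromosome 1 from 161240112 to 161251210, encodes the peroxiredoxin with one catalytic cysteine, which uses glutathione in place of thioredoxin and can also reduce oxidized phospholipids. Its normalized counts were 38.5, 45.0 and 40.6 in the p62+/+ livers and 70.5, 84.4 and 58.1 in the p62S351E/+ livers. As for Prdx1, mouse 2 was the highest of the p62S351E/+ mice and mouse 3 the lowest, without overlap with p62+/+ mice. The log2 fold change was 0.77 (standard error 0.22, 95% interval from 0.27 to 1.28, adjusted p = 0.191 from edgeR).

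Prdx4 and Prdx5 did not share this pattern. Prdx4, on chromosome X from 155323918 to 155342272, encodes the peroxiredoxin of the endoplasmic reticulum, and had 12.0, 10.1 and 9.50 normalized counts in the p62+/+ livers and 9.52, 20.2 and 7.75 in the p62S351E/+ livers. One p62S351E/+ mouse was above and one below all p62+/+ mice. The log2 fold change was 0.23 (standard error 0.42, 95% interval from -0.74 to 1.20, adjusted p = 0.808 from edgeR) and rested on 5 to 16 raw counts per library.

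Prdx5, on chromosome 19 from 6906697 to 6910106, encodes a peroxiredoxin of mitochondria, peroxisomes and cytosol. It had 18.5, 28.7 and 38.0 normalized counts in the p62+/+ livers and 13.3, 22.7 and 20.9 in the p62S351E/+ livers. The groups overlapped, with p62S351E/+ mouse 1 below all p62+/+ mice. The log2 fold change was -0.56 (standard error 0.34, 95% interval from -1.33 to 0.21, adjusted p = 0.463 from edgeR), and its interval lies below those of Srxn1, Txnrd1, Cat, Prdx1 and Prdx6, although the difference between genes was not tested.

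Cat, on chromosome 2 from 103453904 to 103485153, encodes catalase, the heme enzyme of peroxisomes that splits hydrogen peroxide. It had 296.9, 202.6 and 270.3 normalized counts in the p62+/+ livers and 472.2, 682.9 and 340.9 in the p62S351E/+ livers. The p62S351E/+ mice again ran in the order mouse 2, mouse 1, mouse 3, and mouse 3 was close to the highest p62+/+ mouse. The hepatocyte marker sum ran in the same order over these mice. The means of 256.6 ± 48.6 and 498.7 ± 172.5 (SD, n = 3 each) differed 1.94-fold, a log2 fold change of 0.96 (standard error 0.29, 95% interval from 0.28 to 1.63, adjusted p = 0.222 from edgeR).

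The superoxide dismutase genes overlapped between the genotypes. Sod1, on chromosome 16 from 90220762 to 90226333, had 52.2, 41.1 and 74.3 normalized counts in the p62+/+ livers and 57.1, 86.9 and 72.0 in the p62S351E/+ livers, and its log2 fold change was 0.37 (standard error 0.28, 95% interval from -0.26 to 1.0, adjusted p = 0.546 from edgeR). Sod2, on chromosome 17 from 13007839 to 13018119, had 44.1, 24.1 and 42.3 normalized counts in the p62+/+ livers and 26.7, 47.9 and 48.8 in the p62S351E/+ livers, and its log2 fold change was 0.17 (standard error 0.32, 95% interval from -0.57 to 0.91, adjusted p = 0.815 from edgeR). Each genotype held low and high mice for Sod2. The upper bounds of both intervals, 1.0 and 0.91, are above the estimate for Prdx1.

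**Figure D2:**
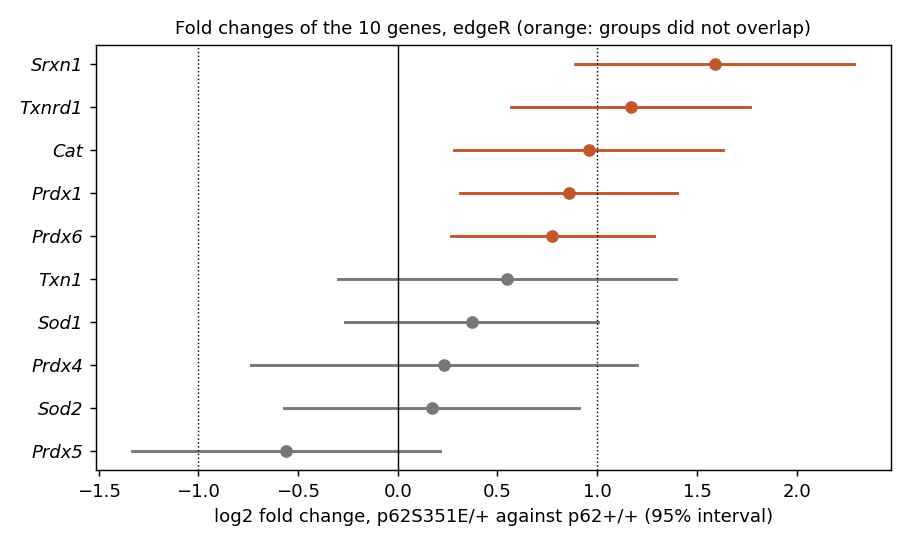
Log2 fold change of each gene in p62S351E/+ against p62+/+ mice from edgeR (point) with its 95% interval (line), genes ordered by their estimate, orange where the groups did not overlap. The dotted lines mark the fold threshold, and the intervals of Srxn1, Txnrd1, Cat, Prdx1 and Prdx6 lie above 0 while those of the other genes include it.

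The differences depended on which p62S351E/+ mice entered. Mouse 3 stood apart from the other p62S351E/+ mice in brain transcripts and also in Xist (1537 raw counts against 1 and 0). Leaving it out or keeping it alone changes both together, and their parts cannot be told apart. Without p62S351E/+ mouse 3, the one p62S351E/+ mouse with brain transcripts, edgeR called 4 of the 10 genes higher and 0 lower, against 5.21% of all genes called higher. These were Srxn1 (log2 fold change 1.74, adjusted p = 0.00232), Txnrd1 (1.24, adjusted p = 0.0088), Cat (1.17, adjusted p = 0.00343) and Prdx1 (1.04, adjusted p = 0.003). Prdx6 had an adjusted p of 0.0136 at a log2 fold change of 0.90, under the fold threshold. The same fit called 975 of 6390 genes lower, and the adjustment of each p depends on all genes tested. The unadjusted p of Txnrd1 from edgeR was 0.00188 with all mice and 0.00123 without mouse 3. That of Cat was 0.011 with all mice and 0.000362 without mouse 3. When mouse 3 was instead the only p62S351E/+ mouse, so that all 4 libraries held brain transcripts and the lone mouse was assumed to vary like the p62+/+ mice, 0 of the 10 were called, 3 had an unadjusted p below 0.05, and 0.949% of genes were called higher. In that fit Srxn1 had a log2 fold change of 1.28 (adjusted p = 0.112, edgeR) and Txnrd1 of 1.03 (adjusted p = 0.116, edgeR), while Cat, Prdx1 and Prdx6 had 0.42, 0.43 and 0.50 (adjusted p of 0.529, 0.573 and 0.608). These values rest on a single p62S351E/+ mouse. With the summed brain markers as a covariate, the median of the 10 genes was 0.34, against -0.004 for all genes tested. In that fit 2 of the 10 had an unadjusted p below 0.05 from edgeR. With the Xist count as a covariate, the medians were 0.44 and -0.06, and 4 of the 10 had an unadjusted p below 0.05. The share of all genes at an unadjusted p below 0.05 was not counted in these fits, so these counts have nothing beside them. When every library had to hold at least 10 counts of a gene, which kept 8 of the 10 genes and called 2.99% of genes higher, Srxn1 passed (adjusted p = 0.00542), and Txnrd1 had an adjusted p of 0.0415 at a log2 fold change of 0.91. Where an alternative gave an adjusted p, it ran from 0.00232 to 0.423 for Srxn1, from 0.0088 to 0.528 for Txnrd1, from 0.00343 to 0.883 for Cat, from 0.003 to 0.822 for Prdx1 and from 0.0136 to 0.903 for Prdx6, with the lowest value of each obtained without p62S351E/+ mouse 3.

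The differences also depended on the scaling. Scaled by library size alone, the median of the 10 genes was -0.03 and that of all genes tested was -0.68, and scaled by the 10 hepatocyte markers the medians were 0.03 and -0.58. The distance between the 10 genes and all genes was 0.69 on the TMM scale, 0.65 by library size and 0.61 by hepatocyte markers. A change of scaling shifts all genes of a library together, so this distance could hardly change and tests nothing. Over all alternatives it ran from 0.35 with the brain-marker covariate to 0.88 without p62S351E/+ mouse 3. It was 0.50 with the Xist covariate and 0.45 with the 4 libraries with brain transcripts. Relative to hepatocyte markers, 0 of the 10 were called by edgeR, and 0.202% of genes were called higher. At an unadjusted p below 0.05 from edgeR, 1 was higher and 1 lower, and the share of all genes there was not counted. The fold changes of Srxn1, Txnrd1, Prdx1, Prdx6 and Cat were above 0 in all 20 alternatives, and that of Prdx5 was below 0 in all 19 that tested it, whereas Txn1, Prdx4, Sod1 and Sod2 changed sign in some, among them both of these scalings.

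**Figure D3:**
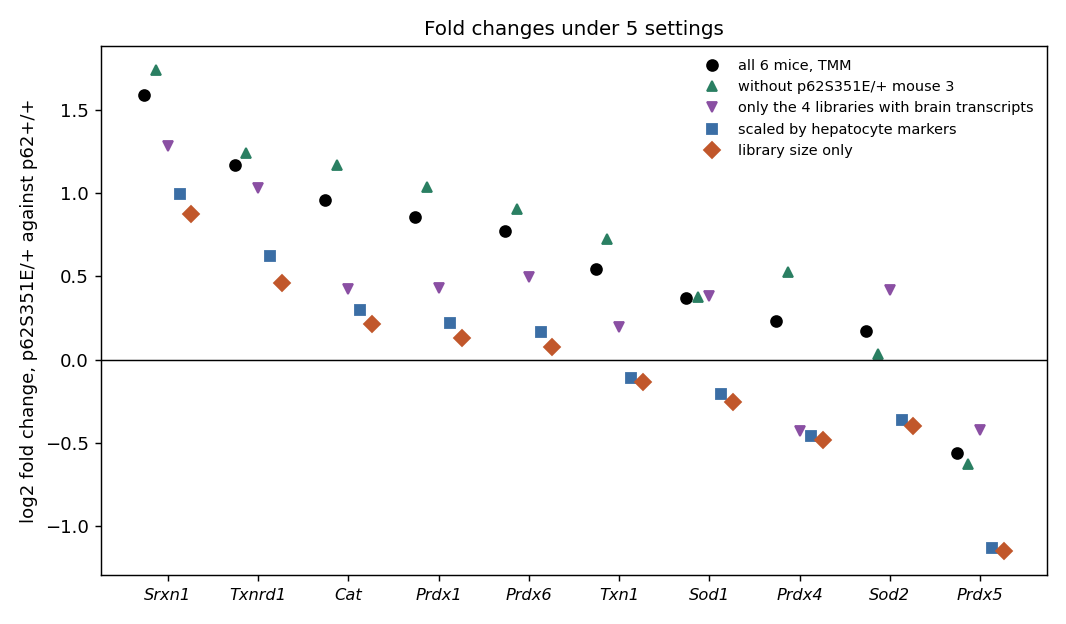
Log2 fold change of each gene, p62S351E/+ against p62+/+ mice, under 5 settings, namely all 6 mice with TMM (black circles), without p62S351E/+ mouse 3 (green triangles), the 4 libraries with brain transcripts (violet triangles), scaling by 10 hepatocyte markers (blue squares) and library size only (orange diamonds). Srxn1 and Txnrd1 lie highest in each setting and Prdx5 stays below 0, while Txn1, Prdx4, Sod1 and Sod2 lie on both sides of 0.

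Per 10000 counts of the hepatocyte markers, Srxn1 had 5.31, 7.81 and 9.63 counts in the p62+/+ livers and 17.9, 10.7 and 17.1 in the p62S351E/+ livers. It stayed without overlap, with mouse 2 now lowest (log2 fold change 1.0, adjusted p = 0.37 from edgeR). Cat had 196.6, 145.7 and 188.4 in the p62+/+ livers against 222.0, 207.7 and 221.9 in the p62S351E/+ livers, also without overlap but only 0.30 apart on the log2 scale (adjusted p = 0.435 from edgeR). Prdx4, at 7.97, 7.26 and 6.62 against 4.48, 6.13 and 5.04, lay lower in every p62S351E/+ mouse (log2 fold change -0.46). On this scale 2 of the 10 genes were thus higher and 1 lower without overlap, against 2.1% and 28.3% of all genes tested. Txnrd1 had 11.7, 15.1 and 18.7 in the p62+/+ livers and 28.6, 13.0 and 28.7 in the p62S351E/+ livers, so that mouse 2, whose hepatocyte markers were highest, fell into the p62+/+ range. The same mouse brought Prdx1 (59.5, 64.2 and 60.2 against 76.1, 61.3 and 77.2) and Prdx6 (25.5, 32.4 and 28.3 against 33.1, 25.7 and 37.8) to overlap. Prdx5 had 12.2, 20.6 and 26.5 in the p62+/+ livers and 6.27, 6.90 and 13.6 in the p62S351E/+ livers, a log2 fold change of -1.13 (adjusted p = 0.367 from edgeR) with p62S351E/+ mouse 3 in the p62+/+ range. The part that hepatocyte content and brain transcripts have in the differences of Srxn1, Txnrd1, Cat, Prdx1 and Prdx6 was not tested beyond these values.

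**Figure D4:**
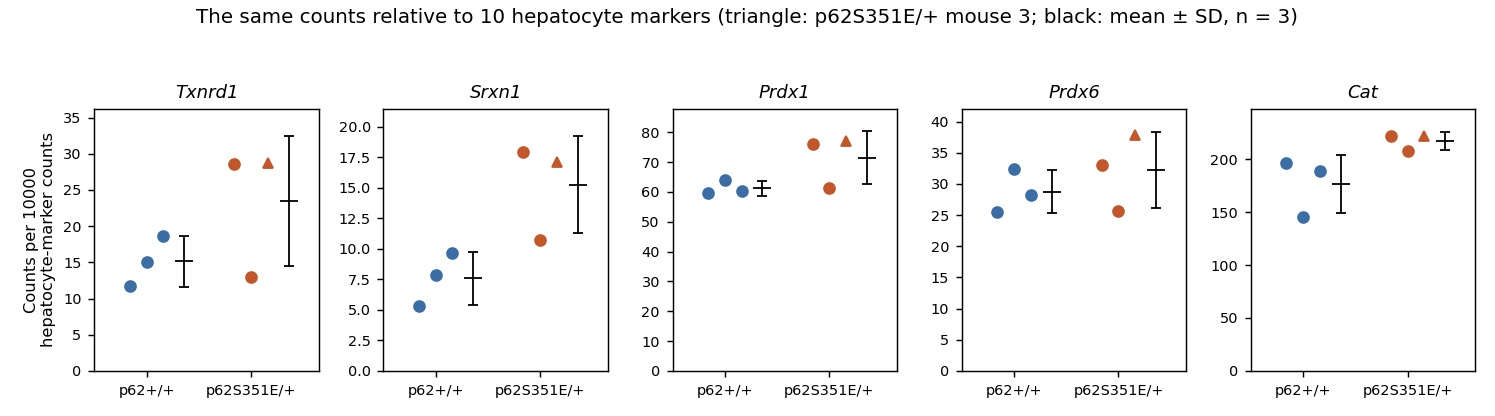
Counts per 10000 counts of 10 hepatocyte markers for Txnrd1, Srxn1, Prdx1, Prdx6 and Cat, one panel per gene with its own axis from 0, one point per mouse, a triangle for p62S351E/+ mouse 3 and black bars for the mean ± SD of 3 mice. Srxn1 and Cat keep all p62S351E/+ points above the p62+/+ points, and p62S351E/+ mouse 2 overlaps p62+/+ mice for Txnrd1, Prdx1 and Prdx6.

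Ratios within a library do not depend on the scaling between libraries, and they set these genes against paralogs, most of them in other compartments. The ratios given are of the counts as deposited, and their log2 differences were computed after adding 0.5 to each count. Txnrd1 against Txnrd2, which encodes the mitochondrial reductase, stood at 5.13, 4.86 and 6.20 in the p62+/+ livers and at 15.2, 10.5 and 7.78 in the p62S351E/+ livers. All p62S351E/+ ratios were above the p62+/+ ratios, with a log2 difference of 0.93, although Txnrd2 had only 2.1 to 7.33 counts per library and RSEM divided part of its reads with other genes. The exact two-sided permutation test gave p = 0.1, the smallest it can give with 3 mice against 3, and 0.5 after adjustment over 5 ratios.
Prdx1 against Prdx2, another cytosolic peroxiredoxin, stood at 5.60, 6.39 and 5.88 in the p62+/+ livers and at 17.0, 12.3 and 5.67 in the p62S351E/+ livers. Mouse 3, whose library held brain transcripts as the p62+/+ libraries did, lay within the p62+/+ range. The other p62S351E/+ mice, nearly free of brain transcripts, lay above it (log2 difference 0.80, exact permutation p = 0.3). Prdx2 had only 5 counts in p62S351E/+ mouse 1, and the part of brain transcripts in this ratio was not tested. Prdx1 against Prdx3, the mitochondrial peroxiredoxin, stood at 11.2, 5.75 and 7.14 against 12.1, 8.89 and 10.9, a log2 difference of 0.44 (exact permutation p = 0.3). Sod1 against Sod2 differed by 0.22 (exact permutation p = 0.4), and Txn1 against its mitochondrial paralog Txn2 by -0.0019 (exact permutation p = 1). The paralogs themselves overlapped between the genotypes, with log2 fold changes of 0.62 for Txn2, 0.10 for Prdx2 and 0.38 for Prdx3 (adjusted p of 0.432, 0.903 and 0.644, edgeR), and Txnrd2 was under the filter on low counts.

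Levels of different genes were compared as normalized counts per kilobase of exon. Cat was the highest of the 10 in p62+/+ mice, at 98.2 ± 18.6 (SD, n = 3), followed by Prdx1 at 29.1 ± 0.617 and Txn1 at 19.6 ± 7.36, and these 3 did not overlap between neighbours. Below them came Sod1 (14.1), Prdx5 (13.3), Prdx6 (8.61), Prdx4 (5.01), Srxn1 (3.87), Sod2 (3.68) and Txnrd1 (3.08), where among neighbours Prdx6 and Prdx4 alone were apart beyond their ranges. In p62S351E/+ mice the level of Cat was 190.8 ± 66.0 (SD, n = 3), apart from Prdx1 at 52.8 ± 13.7, and no other neighbours were apart. Srxn1 stood in place 6 of the 10 in p62S351E/+ mice, at 11.8, and in place 8 in p62+/+ mice, while Prdx5 stood in place 7, at 8.87, and in place 5. The order depended on the length used, and the exon union is longer than the principal coding transcript for all but Txn1 and Cat. Per kilobase of the principal coding transcript, the p62+/+ levels of Prdx1, Cat and Sod1 were 100.9, 98.2 and 87.1, and Srxn1 was the lowest at 3.88.

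Related enzymes of the same chemistry, which share substrates or cofactors with the 10 genes, were counted in lists. A list of 29 held further thioredoxins, peroxiredoxins, glutathione peroxidases, glutaredoxins, sestrins and methionine sulfoxide reductases, and also Sod3 and Ccs. Of the 29, 11 were tested, and 0 passed in either direction with edgeR. None had an unadjusted p below 0.05, and their median log2 fold change was 0.26, with 8 above 0. The largest of these was that of Msra at 1.07 (adjusted p = 0.357, edgeR), with overlap.
Of 7 genes of selenoprotein synthesis and transport, on which Txnrd1 depends, 5 were tested, 0 passed and the median was -0.12. Selenop, listed as Sepp1, which encodes the selenium carrier that the liver secretes, had 546.5, 636.6 and 617.5 normalized counts in p62+/+ livers and 1461, 1867 and 1011 in p62S351E/+ mice, without overlap (log2 fold change 1.27, adjusted p = 0.0803, edgeR). Sephs2, the selenophosphate synthetase, was higher without overlap (0.69, adjusted p = 0.267, edgeR), and Secisbp2, which recruits the selenocysteine machinery to the message, was lower without overlap (-0.60, adjusted p = 0.505, edgeR).
Of 10 genes of glutathione synthesis and recycling, which supply the other thiol system, 5 were tested, and 2 were called higher and 0 lower, with a median of 0.96. Gsr, the glutathione counterpart of Txnrd1, rose from 8.02, 6.21 and 5.18 to 34.3, 26.5 and 31.8 normalized counts (log2 fold change 2.23, adjusted p = 0.0146, edgeR), and Gclc rose with a log2 fold change of 2.57 (adjusted p = 0.0127, edgeR). Gclm at 0.96 (adjusted p = 0.209, edgeR) and Gss at 0.63 (adjusted p = 0.381, edgeR) did not overlap between the genotypes either.
Of 23 peroxisomal proteins, which share the compartment of catalase, 18 were tested, and 1 was called higher and 0 lower, with a median of 0.37 and 16 above 0. Acox2, the peroxisomal oxidase of bile acid intermediates, which yields hydrogen peroxide, rose from 34.5, 33.4 and 27.6 to 89.5, 88.2 and 68.2 normalized counts (log2 fold change 1.36, adjusted p = 0.0341, edgeR). Ehhadh, Ech1 and Hsd17b4, enzymes of fatty acid oxidation there, had 1.34, 0.65 and 0.54 (adjusted p of 0.05, 0.285 and 0.336, edgeR), each without overlap, the adjusted p of Ehhadh being just above the threshold.
In the promoter windows, the core TGACNNNGC was found for 2 of 25 related redox enzymes, 0 of 6 selenoprotein genes, 3 of 7 glutathione genes and 5 of 20 peroxisomal genes that had a window.

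Genes whose normalized counts ran most like those of single members over the 6 libraries were found by Pearson's r of log2 values among 1478 genes with a mean of at least 30. Nearest to Txnrd1 were Cyp2d22 (r = 0.996), Ehhadh (0.993) and Tnrc6a (0.984). Nearest to Srxn1 were Pabpc1 (0.995), H6pd (0.993) and Ugt1a6b (0.988), and nearest to Cat were Serp1 (0.992), Tfr2 (0.99) and F9 (0.988). These values describe 6 libraries that share the same scaling and, in 4 of them, brain transcripts, and they are the highest of 1478. Txnrd1, Srxn1 and Cat did not overlap between the genotypes, so r also holds the genotype difference. The neighbours named had log2 fold changes from 0.61 (Tfr2) to 1.71 (Ugt1a6b).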

How the data were processed

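The study's libraries were prepared from rRNA-depleted total RNA with the NEBNext Ultra II kit and sequenced with single-end reads on an Illumina NextSeq. The submitters' processing notes name Trim Galore, STAR, RSEM, DESeq2 and mm10. Versions and the annotation are not given in the sources used here, nor is a strand setting, so reads of genes that overlap on opposite strands cannot be told apart. The authors deposited RSEM expected counts per gene symbol without normalization. RSEM divides reads shared between genes, and 6.45% of nonzero values were not whole numbers, but those of the 10 genes described were whole in every library. All 6 columns matched one sample each by its label.

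Expected counts were rounded and tested in R 4.3.3 with edgeR 4.0.16 (filterByExpr with a minimum count of 10, TMM, robust quasi-likelihood fit with legacy set to FALSE) over 5945 genes, with Benjamini-Hochberg adjustment. A gene was called where its adjusted p was below 0.05 and its log2 fold change above 1 in size. Standard errors were obtained as the size of the log2 fold change over the square root of its F statistic. Normalized counts were obtained with the TMM-scaled library sizes, set to a geometric mean of 1 over the libraries. Correlations and log2 differences of ratios used a pseudocount of 0.5, and the ratios of single mice none. DESeq2 1.42.0, limma 3.58.1 (voom), other scalings, filters, covariates, thresholds and left-out mice were alternatives, and scaling by hepatocyte markers and the principal-transcript length were added later, with the data in view. The tests were checked on simulated counts with the same spread for both genotypes. The simulation left out the brain transcripts of part of the libraries and the wider spread among p62S351E/+ mice. P-values set the difference between the genotypes against the spread between single mice, and depth limits genes with few counts. Gene positions and lengths come from the RefSeq and GENCODE annotations of GRCm38.

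The 10 genes, the lists of related genes and the markers of hepatocytes, brain, erythroid, Kupffer, endothelial and stellate cells were chosen with earlier results of these data known. Of related genes, those named passed the call, or did not overlap with an absolute log2 fold change above 0.5, or are the paralogs Txn2, Txnrd2, Prdx2 and Prdx3. Msra was named as the largest of its list after its value had been seen, and Sod3 and Ccs to describe that list. A further peroxisomal gene that met these criteria is not reported here.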

Additional observations from a re-analysis of the deposited data

How the results depend on the processing

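Against 0 of the 10 genes called higher with all mice, limma-voom called 2, at least 10 counts in every library called 1, and leaving out one mouse called 0 to 4, the 4 without p62S351E/+ mouse 3. No alternative called any of them lower. Over all genes, 50 were higher and 5 lower. The number higher was 122 with limma-voom, 12 with library size only, 79 without a filter, 32 with the brain-marker covariate, 27 with the Xist covariate, 12 with hepatocyte-marker scaling, 18 at an adjusted p below 0.01 and 16 to 333 with one mouse left out. The number lower was 11 with DESeq2, 13 with limma-voom, 8 with the legacy method, 2 with library size only, 10 without a filter, 29 with at least 10 counts in every library, 2 with the Xist covariate, 23 with the 4 libraries with brain transcripts, 1 at an adjusted p below 0.01 and 1 to 975 with one mouse left out. Of the related genes, 3 were higher, against 5 with limma-voom, 0 with library size only, 5 without a filter, 0 with hepatocyte-marker scaling, 0 at an adjusted p below 0.01 and 0 to 9 with one mouse left out. The extreme counts of 333, 975 and 9 all came without p62S351E/+ mouse 3, and the causes were not tested.

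The replicate numbers do not mark shared animals, and deviations of same-numbered mice correlated at 0.0685, -0.0805 and 0.00264. With the replicate block, 18 genes were higher and 1 lower, 1 related gene was higher and 0 of the 10 genes were called. The block changed no call on any of the 10 genes.

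Of the fold changes of the 10 genes under the alternatives, 173 kept their direction and their side of the threshold, 4 kept their direction but had no adjusted p in DESeq2, 7 passed it in the same direction and 14 changed sign. Those that turned below 0 were those of Txn1 (-0.13), Prdx4 (-0.48), Sod1 (-0.26) and Sod2 (-0.40) with library size only, of Txn1 (-0.11), Prdx4 (-0.46), Sod1 (-0.21) and Sod2 (-0.36) with hepatocyte-marker scaling, of Prdx4 with the brain-marker covariate (-0.52), the Xist covariate (-0.28), the 4 libraries with brain transcripts (-0.43) and without p62S351E/+ mouse 2 (-0.30), and of Sod2 with at least 10 counts in every library (-0.047) and without p62+/+ mouse 2 (-0.056). With one mouse left out, the fold change of Prdx4 ran from -0.30 to 0.53 and that of Sod2 from -0.056 to 0.40. The log2 difference of the Txn1 to Txn2 ratio turned to 0.37 without p62+/+ mouse 3 and 0.20 without p62S351E/+ mouse 3. Levels per kilobase in p62+/+ mice moved, with the longest transcript, to 6.02 for Txnrd1, 38.6 for Prdx1, 10.3 for Prdx4, 16.2 for Prdx6 and 6.29 for Sod2, and with the principal coding transcript to 9.49 for Txnrd1, 100.9 for Prdx1, 10.6 for Prdx4, 22.5 for Prdx5, 17.3 for Prdx6, 87.1 for Sod1 and 6.29 for Sod2, because these are shorter than the exon union.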

Other observations

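Some genes of the related lists had too few counts for the test but did not overlap between the genotypes. Ggt1, which encodes the γ-glutamyltransferase that breaks down extracellular glutathione, had 0 counts in each p62+/+ mouse and 4, 1 and 6 counts in the p62S351E/+ mice. Ggct, which encodes an enzyme of γ-glutamyl peptide breakdown, stood at 8, 6 and 4 raw counts for p62+/+ and at 1, 0 and 1 for p62S351E/+. Both were picked after their values had been seen, these are raw counts without a test, and p62S351E/+ mouse 1 had the fewest counts in all.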
